A study of Mus musculus with 18 samples.

Results

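The genes described here encode the nuclear part of the mitochondrial respiratory chain and of ATP synthase, measured in mouse pancreatic islets. They were chosen by name alone: probe sets with exactly 1 gene symbol that begins Nduf followed by a, b, c, s or v and a digit, that is Sdha, Sdhb, Sdhc or Sdhd, that begins Uqcr or Atp5, or that is Cox4 to Cox8 followed by a letter. This gave 89 probe sets, and of several for 1 gene the one with the highest mean over the 18 arrays was kept, which left 80 of the 22180 genes on the array with a single symbol. Of these, 31 belong to complex I, 4 to complex II, 7 to complex III, 19 to complex IV and 17 to ATP synthase, and 2 are pseudogenes that the names matched (Atp5c1-ps and Uqcrh-ps1). A further 10 probe sets carried several symbols and were left out, so that Cox6c, Ndufb2, Ndufb4, Ndufs6 and Uqcr10 have no value here.

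Islets were taken at 16 weeks of age from mice on a C57BL/6 background, males and females, and RNA of each sample was hybridised to 1 array. The 6 groups of 3 arrays were controls with floxed alleles, TRAF2 knockouts and TRAF3 knockouts, each on chow or after 8 weeks of high-fat diet (HFD, 45% of its energy from fat, begun at 8 weeks of age). The knockout mice carried the floxed gene and RIP-Cre, a recombinase under an insulin promoter that acts in beta cells, whereas islets also hold alpha, delta, endothelial and immune cells whose genes stay intact. Which gene is floxed in the controls, and whether they carry RIP-Cre, is not stated, so that an effect of RIP-Cre and of the knockout cannot be told apart. Nothing says whether a sample is 1 animal, so that p-values rest on differences among these samples, which may be technical. TRAF2 and TRAF3 are adaptor proteins that keep NF-kB inducing kinase (NIK) low, and the series addresses what constant NIK activity does in beta cells.

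The respiratory chain sits in the inner mitochondrial membrane. Complex I takes electrons from NADH and complex II takes them from succinate, complex III passes them to cytochrome c, and complex IV hands them to oxygen. Complexes I, III and IV pump protons, and ATP synthase lets the protons flow back through its membrane ring to drive the catalytic head that makes ATP. In beta cells this ATP closes potassium channels and thereby couples glucose to insulin release. Most subunits come from the nuclear genome and a few from mitochondrial DNA. The catalytic core of each complex is surrounded by small accessory (supernumerary) subunits needed for assembly and stability.

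Markers of beta cells had a mean log2 level between 9.80 and 11.60 on each array, and those of exocrine acinar cells lay between 10.09 and 12.31, so that both kinds of transcript were present throughout. HFD control 3 and HFD TRAF3 knockout 3 stood apart in their endothelial marker score (-0.68 and -0.90, against 0.09 to 0.33 on the other HFD arrays). Here a score is the mean deviation of a list's genes from their means over the 18 arrays, in log2 units. Chow TRAF2 knockout 1 and HFD TRAF3 knockout 2 had the highest lymphocyte scores (2.05 and 1.98). By transcripts of the sex chromosomes each chow group held 1 female array, the HFD controls 3 and each HFD knockout group 2. Traf2 itself read 7.04 to 7.34 in chow controls and 7.22 to 7.50 in chow TRAF2 knockouts, and 6.46 to 7.03 and 6.90 to 7.15 on HFD. A single value for the transcript need not fall in the floxed part, and so it does not check the deletion.

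All levels below are the authors' deposited log2 values, and a difference of 1 is a doubling. The mean over the 80 genes was 8.07 ± 0.06 (SD, n = 3) in chow controls, with 8.00, 8.11 and 8.11 on the 3 arrays. It was 8.09 ± 0.07 in chow TRAF2 knockouts (8.01, 8.14 and 8.12) and 8.20 ± 0.06 in chow TRAF3 knockouts (8.16, 8.27 and 8.17). The chow TRAF3 knockout arrays therefore lay above every chow control. On HFD the controls read 8.26, 8.30 and 8.50 (8.35 ± 0.13), the TRAF2 knockouts 8.21, 8.26 and 8.27 (8.25 ± 0.03) and the TRAF3 knockouts 8.08, 8.07 and 8.24 (8.13 ± 0.09). Every HFD control was thus above every chow control, and the order of controls and TRAF3 knockouts was opposite on the 2 diets. In whole islets, a change in the number of cells of a type and a change in RNA per cell cannot be told apart.

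**Figure D1:**
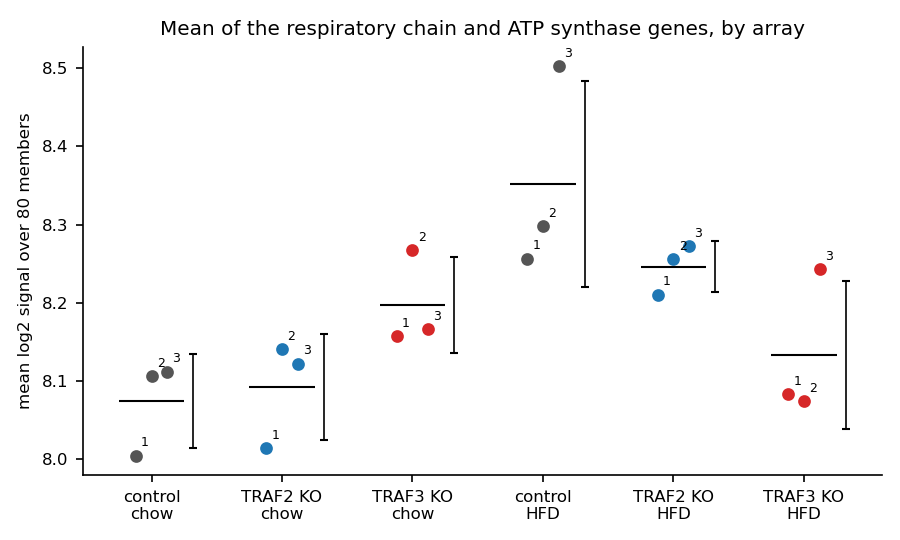
Mean log2 signal over the 80 respiratory chain and ATP synthase genes on each array (points, numbered by replicate), with the group mean (horizontal line) and its SD over 3 arrays (vertical bar); the axis does not start at 0. Chow TRAF3 knockouts lay at 8.16 to 8.27, above the chow controls at 8.00 to 8.11, and HFD control 3 was the highest array at 8.50.

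On chow, TRAF3 knockout islets had 9 of the 80 genes higher and 1 lower than controls at an adjusted p under 0.05 (limma over all genes, Benjamini-Hochberg), where 6.33% of all genes passed as higher and 4.69% as lower. The 9 that rose were small subunits of complexes I and IV, the matrix subunit Cox5a and the ring subunit Atp5g3, and the 1 that fell was Cox6a2. The median difference of the 80 genes was 0.15, against -0.01 over all genes, and 58 of them had a positive difference. All 3 knockout arrays exceeded all 3 controls in 36 of the 80, where 15.9% of all genes did so. Ductal scores were 0.37 to 1.12 in the knockouts and -1.05, 0.37 and 0.26 in the controls. The groups overlapped, with chow control 2 (0.374) above chow TRAF3 knockout 2 (0.366), and chow control 1 was far below the others. Of 8 ductal markers 1 passed as higher, with a median of 0.31. With the ductal score as a covariate 1 gene passed in place of 10, and the share of all genes passing with it was not counted. Beta cell markers fell: 8 of 11 passed, with a median difference of -1.41. Macrophage markers also moved, 3 of 10 passing as higher with a median of 0.79. The part of beta cell and macrophage markers in the result was not tested. The count was 1 without chow control 1, 3 without chow TRAF3 knockout 1 or 3, and 4 without chow TRAF3 knockout 2.

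On HFD the difference had the opposite sign. None of the 80 genes was higher in TRAF3 knockouts than in HFD controls (1.68% of all genes passed as higher), and 4 were lower, where 0.848% of all genes passed as lower. These 4 were Atp5e, Ndufb7, Cox6b1 and Uqcr11, all small subunits and each in another complex. At an unadjusted p under 0.05 there were 30 in either direction, and the share of all genes at that level was not counted. The median difference was -0.24, against -0.02 over all genes, and 66 of the 80 had a negative difference. All 3 knockout arrays lay below all 3 controls in 22 genes, where 7.98% of all genes did so. Macrophage markers were also lower here, with 3 of 10 passing and a median of -1.14, as was 1 of 7 stellate and fibroblast markers, and their part in the result was not tested. The acinar median was -0.77 with none of 17 passing. With the acinar score as a covariate 2 of the 80 genes passed in place of 4, with no share of all genes counted. No gene passed without HFD control 3 or without HFD TRAF3 knockout 1, 1 passed without HFD TRAF3 knockout 2, and 7 passed without HFD TRAF3 knockout 3. It was 2 without HFD control 2, without chow TRAF3 knockout 1, 2 or 3, without chow TRAF2 knockout 2, or without HFD TRAF2 knockout 1 or 3.

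High-fat feeding itself went with higher levels in control islets. Of the 80 genes 7 were higher on HFD than on chow, where 0.523% of all genes passed as higher, and none was lower (0.361% of all genes). At an unadjusted p under 0.05 in either direction there were 35 of the 80, and the share of all genes was not counted. Ndufa4, Uqcr11, Atp5e, Ndufb7, Cox6b1, Cox7a2 and Ndufa13 rose, by 0.53 to 0.81. The median difference was 0.26, against 0.01 over all genes, and 41 genes had all 3 HFD controls above all 3 chow controls, where 9.76% of all genes did so. All 3 HFD controls were female and 1 of the 3 chow controls was. With sex as a covariate 1 of the 80 passed in place of 7, and the share of all genes passing with it was not counted. Macrophage markers rose in the same comparison, 7 of 10 passing with a median of 1.84, as did 1 of 7 stellate and fibroblast markers (median 0.99), and their part was not tested. The count was 2 without HFD control 2 or 3, 1 without chow control 2 and 4 without chow control 3.

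In TRAF2 knockouts HFD against chow gave 2 higher genes, Atp5e and Ndufa4, and none lower, where 0.884% of all genes passed as higher and 1.08% as lower. The median was 0.15, and 30 of the 80 had all HFD arrays above all chow arrays, where 11.7% of all genes did so. Macrophage markers rose here too, 5 of 10 passing with a median of 1.81, as did 1 of 7 stellate and fibroblast markers (median 0.72). The acinar median was 0.72 with none of 17 passing. With the acinar score as a covariate 1 gene passed in place of 2, with no share of all genes counted. The part of macrophage and stellate markers was not tested. Both calls were lost without chow TRAF2 knockout 2 or 3, HFD TRAF2 knockout 2 or 3, or chow TRAF3 knockout 1, and 1 of them without any of 9 other arrays. In TRAF3 knockouts 1 gene was higher on HFD (Cox6a2) and 1 lower (Ndufb7), where 2.66% of all genes passed as higher and 6.01% as lower. The median there was -0.10, and 16 of the 80 had all 3 HFD arrays below all 3 chow arrays, where 14.8% of all genes did so. The difference was negative for 58 of the 80, and the median over all genes was 0.02. Beta cell markers rose in the same comparison, 8 of 11 passing with a median of 1.08. Of the endothelial markers 2 of 6 fell (median -0.55), as did 1 of 8 ductal (median -0.53) and 1 of 10 macrophage markers (median -0.07). The part of these markers was not tested. With the ductal score as a covariate none of the 80 genes passed, and the share of all genes passing with it was not counted. Without HFD TRAF3 knockout 3 or HFD control 3 the count in TRAF3 knockouts was 5, without chow control 1 it was 4, and without HFD TRAF3 knockout 2 or chow TRAF3 knockout 1 it was 0. Without any other single array it was 1.

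**Figure D2:**
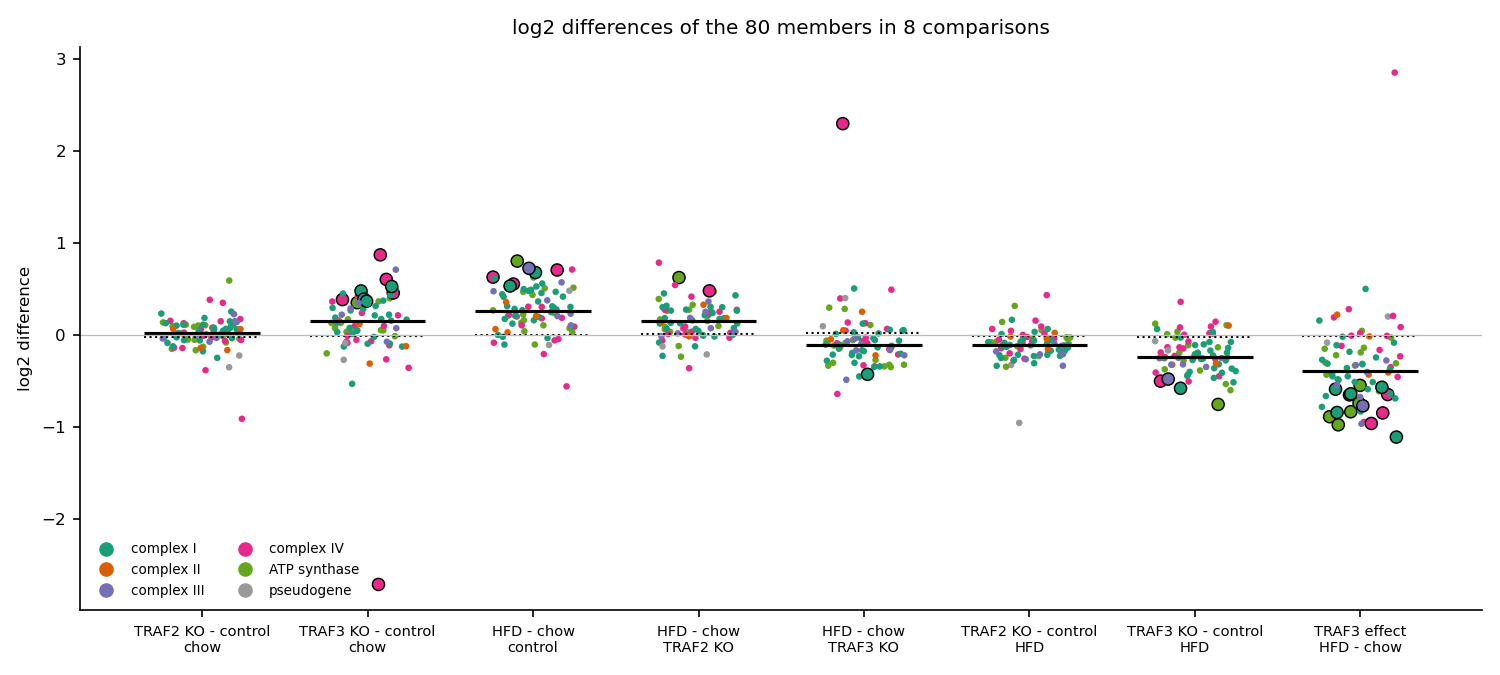
Log2 difference of each of the 80 genes (points, coloured by complex) in 8 comparisons named below the axis, with the median of the 80 (solid line), the median of all genes (dotted line) and the genes past an adjusted p of 0.05 drawn large with a black edge. The medians lie above 0 for TRAF3 knockouts on chow (0.15) and HFD in controls (0.26) and below 0 for TRAF3 knockouts on HFD (-0.24), and Cox6a2 lies alone at -2.71, 2.30 and, for the interaction, 2.85.

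Whether the TRAF3 knockout difference itself depended on diet was tested as an interaction, the difference from controls on HFD minus that on chow. Of the 80 genes 15 passed as lower, where 3.29% of all genes did, and none as higher, where 2.52% of all genes did. The median of the interaction was -0.38, against -0.01 over all genes, and it was negative for 69 of the 80. The 15 were spread over the complexes: Ndufb7, Ndufa11, Ndufa13, Ndufs8 and Ndufv2 of complex I, Uqcr11 of complex III, Cox6b1, Ndufa4, Cox5b and Cox7a2 of complex IV, and Atp5mpl, Atp5e, Atp5k, Atp5pb and Atp5g3 of ATP synthase. The largest, in Ndufb7, was -1.11 ± 0.18 (SE), and the smallest of the 15, in Atp5g3, was -0.54 ± 0.15. In each of the 15 the mean was higher in knockouts than controls on chow and lower on HFD. For TRAF2 knockouts the same interaction was passed by none of the 80 and by 0% of all genes, with a median of -0.15. Of the 80, 1 had an unadjusted p under 0.05, and the share of all genes at that level was not counted. The difference between the interactions of the 2 knockouts was not tested. Macrophage markers also differed from controls in opposite directions on the 2 diets in TRAF3 knockouts (3 of 10 higher on chow, 3 lower on HFD), and 8 of 11 beta cell markers were lower on chow and none on HFD. The part of these markers in the interaction was not tested. The interaction of TRAF3 was passed by 7 genes without HFD control 3, chow TRAF3 knockout 3 or HFD TRAF3 knockout 1, by 8 without chow TRAF3 knockout 1 or HFD TRAF3 knockout 2, and by 9 without chow control 2 or chow TRAF3 knockout 2. It was passed by 26 genes without HFD TRAF3 knockout 3, and by 10 without HFD control 2, without chow control 1, or without HFD control 3 and HFD TRAF3 knockout 3 together. The interactions of Ndufb7, Cox6b1, Ndufa11, Ndufa4 and Uqcr11 passed whichever of the 18 arrays was left out. Those of Atp5g3 and Ndufs8 were lost with 13 of the 18 single arrays left out, that of Atp5mpl with 12 and that of Cox7a2 with 10.

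**Figure D3:**
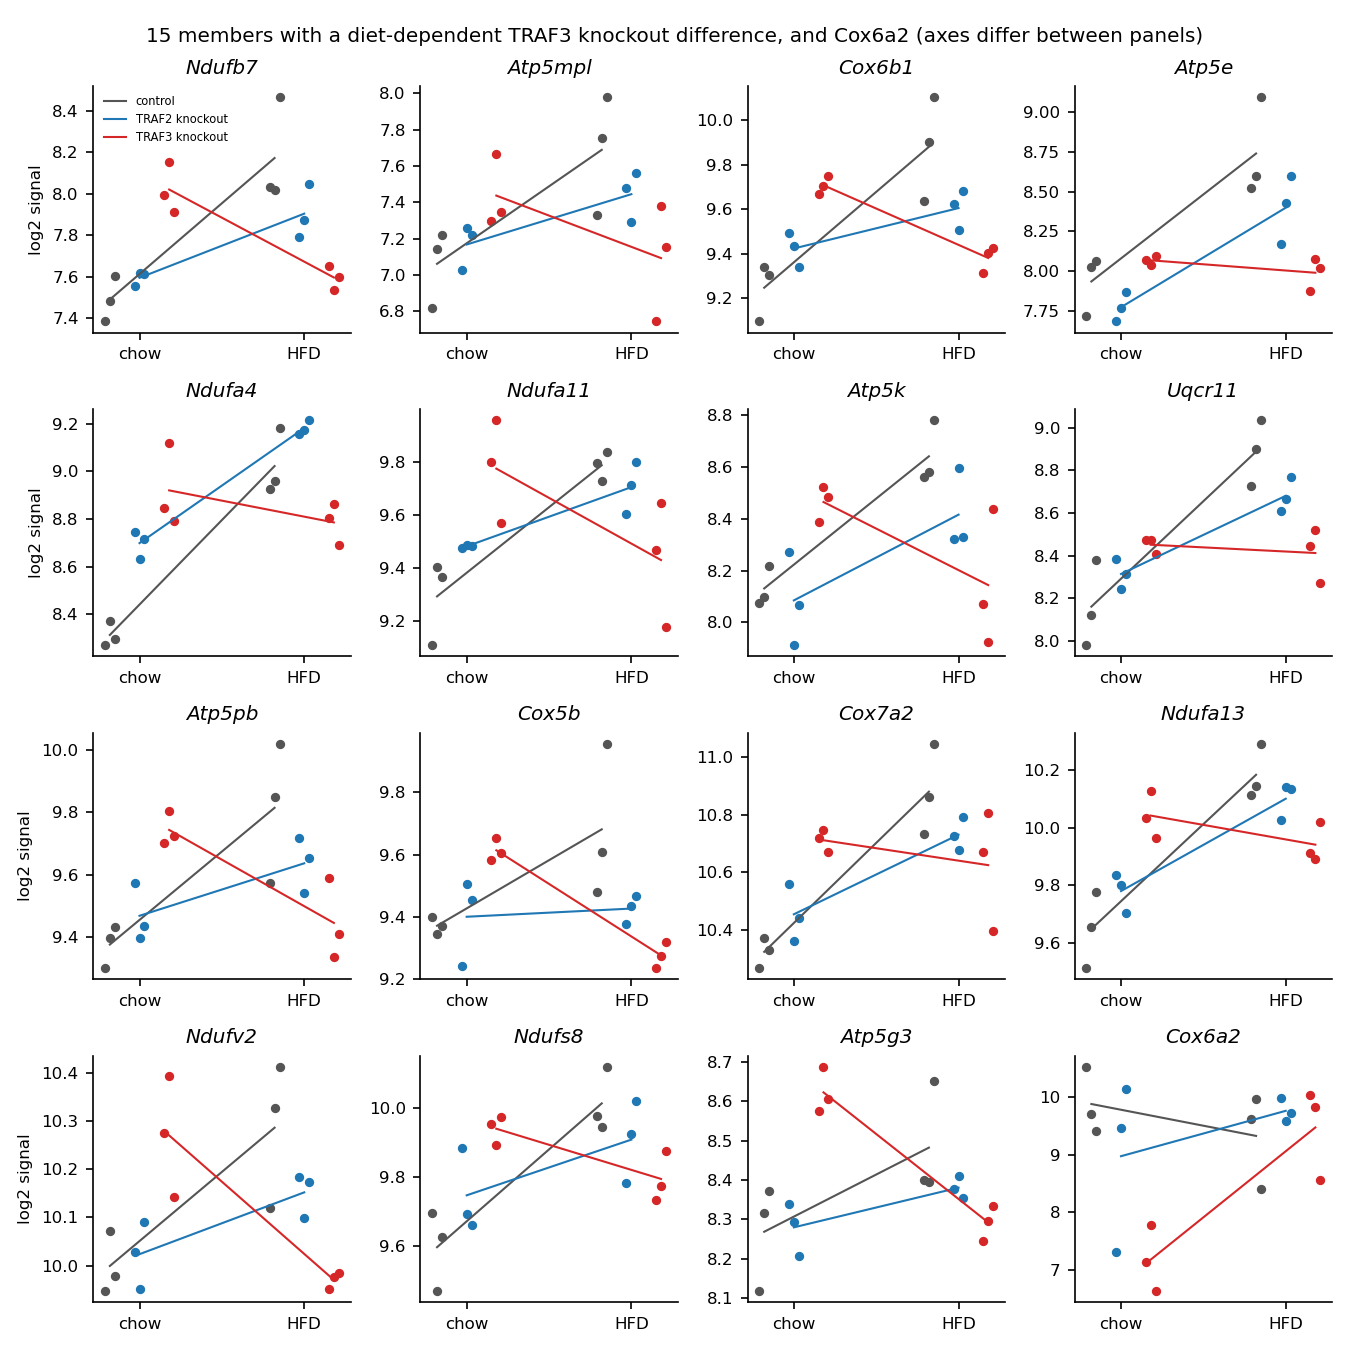
Log2 signal on each array (points) of the 15 genes whose TRAF3 knockout difference depended on diet, and of Cox6a2, on chow and HFD, with lines between the group means of controls (grey), TRAF2 knockouts (blue) and TRAF3 knockouts (red). In the 15 genes the red line starts above the grey one on chow and ends below it on HFD, and in Cox6a2 it starts far below (7.18 against 9.88).

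Promoters were set beside these genes because they moved together. The RefSeq table (GRCm38.p6, 250 bases before to 50 after each start) held 64 of the 80 genes, among them 14 of the 15 above. Letters typical of 4 kinds of factor known for mitochondrial genes were searched on both strands. CATGCGCA, an NRF1 motif, was found in 8 of the 64 (12.5%) against 2.42% of the 27025 genes of the table, and AAGATGGC, a YY1 motif, in 9 (14.1%) against 3.19%. CCGGAAGT, an ETS motif bound by GABPA, was found in 5 (7.81%) against 4.31%, and TCAAGGTCA, an ERR motif, in 2 (3.12%) against 0.466%. Of the 14 genes 4 held any of these letters: Cox5b (NRF1), Uqcr11 (ETS), Atp5pb (YY1) and Atp5g3 (ERR). For each motif that is 1 of 14, to be read beside the shares of the 64 and of all genes above. The share with any of the 4 motifs was not counted for the 64 or for all genes, so these matches do not set the 14 apart. The 100 bases before the start are shown for Ndufb7 and Cox6b1, which passed the interaction whichever array was left out, and for 3 of the genes with a match, which is in capitals. They lie at chr8:83566658-83566757 on the plus strand for Ndufb7, chr7:30626115-30626214 on the minus strand for Cox6b1, and chr10:80406822-80406921 on the minus strand for Uqcr11. Those of Cox5b and Atp5g3 are chr1:36691387-36691486 on the plus strand and chr2:73911327-73911426 on the minus strand, and all are written in the direction of the gene.
Ndufb7: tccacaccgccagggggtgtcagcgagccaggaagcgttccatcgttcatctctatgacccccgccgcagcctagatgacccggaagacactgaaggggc
Cox6b1: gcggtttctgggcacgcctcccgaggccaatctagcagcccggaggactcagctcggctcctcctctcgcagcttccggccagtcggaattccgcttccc
Uqcr11: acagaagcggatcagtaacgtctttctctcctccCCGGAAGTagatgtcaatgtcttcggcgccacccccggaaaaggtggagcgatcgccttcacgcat
Cox5b: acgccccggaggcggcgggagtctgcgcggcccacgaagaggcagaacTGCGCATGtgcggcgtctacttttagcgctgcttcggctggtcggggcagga
Atp5g3: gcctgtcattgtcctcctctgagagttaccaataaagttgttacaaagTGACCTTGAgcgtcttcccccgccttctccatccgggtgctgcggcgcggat
The capitals in Cox5b and Atp5g3 are the reverse complements of the letters searched. A match says only that these letters are there.

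In complex I 4 of the 25 accessory subunits passed in chow TRAF3 knockouts: Ndufb7, Ndufa11, Ndufa13 and Ndufs4. Ndufb7 (probe set 17502944), an accessory subunit of the membrane arm, read 7.38, 7.48 and 7.60 in chow controls and 8.00, 8.15 and 7.91 in chow TRAF3 knockouts. On HFD it read 8.03, 8.02 and 8.46 in controls and 7.65, 7.54 and 7.60 in TRAF3 knockouts. The groups did not overlap on either diet, with the knockouts above on chow and below on HFD. The differences were 0.53 ± 0.13 (SE, adjusted p = 0.015) on chow and -0.58 ± 0.13 (adjusted p = 0.024) on HFD, and the interaction had an adjusted p of 0.0059. The TRAF2 knockouts read 7.55, 7.62 and 7.61 on chow and 7.79, 7.87 and 8.04 on HFD, and overlapped the controls on both diets. The fall of Ndufb7 with HFD in TRAF3 knockouts (-0.42 ± 0.13, adjusted p = 0.050) was lost with 16 of the 18 single arrays left out.

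Ndufa11 (17547939), a membrane-arm subunit, read 9.11, 9.40 and 9.36 in chow controls and 9.80, 9.96 and 9.57 in chow TRAF3 knockouts. On HFD controls read 9.80, 9.73 and 9.84 and TRAF3 knockouts 9.47, 9.65 and 9.18. Again no array of one group reached the other on either diet. The chow difference was 0.48 ± 0.13 (adjusted p = 0.030) and the interaction -0.84 ± 0.19 (adjusted p = 0.020), but the other probe set of Ndufa11 gave -0.01 and -0.15. Ndufa13, also known as GRIM-19, rose on chow in TRAF3 knockouts (0.39 ± 0.10, adjusted p = 0.023) and with HFD in controls (0.53 ± 0.10, adjusted p = 0.025). Ndufs4, an accessory subunit whose loss causes complex I deficiency, rose in chow TRAF3 knockouts, with 10.68, 10.63 and 10.61 against 10.25, 10.33 and 10.23 (0.37 ± 0.10, adjusted p = 0.031), and did not pass in the interaction.

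The core subunits of complex I carry the flavin and the iron-sulphur clusters. None of the 6 measured here passed between TRAF3 knockouts and controls on either diet, and their differences ran from -0.09 to 0.34 on chow and from -0.41 to -0.07 on HFD. Whether core and accessory subunits differ was not tested. Ndufv2 and Ndufs8 passed in the interaction, at -0.59 ± 0.15 (adjusted p = 0.031) and -0.56 ± 0.15 (adjusted p = 0.041). Ndufv2 read 10.28, 10.39 and 10.14 in chow TRAF3 knockouts and 9.95, 9.98 and 9.98 in HFD TRAF3 knockouts, against 9.95 to 10.07 and 10.12 to 10.41 in the controls. The flavoprotein Ndufv1 read 9.65 to 9.69 in chow TRAF3 knockouts and 9.42 to 9.62 in chow controls, and did not pass. Ndufs1, the largest core subunit, went from 7.94 ± 0.14 in chow controls to 7.84 ± 0.15 in chow TRAF3 knockouts, within its spread. Ndufs7 lay between 11.16 and 11.61 on all 18 arrays, with group means from 11.30 to 11.46. Ndufs3 read 6.00 ± 0.04 in chow controls and 6.30 ± 0.11 in chow TRAF3 knockouts. Ndufc2, an accessory subunit, had a group mean of 11.80 in chow controls and 12.18 in chow TRAF3 knockouts, and did not pass.

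Complex II, which also works in the citric acid cycle and has no subunit from mitochondrial DNA, had no gene past the threshold in any of the 11 comparisons. Its 4 genes had differences of -0.31 to 0.16 between TRAF3 knockouts and controls on chow and of -0.32 to 0.11 on HFD. The flavoprotein Sdha read 10.57, 10.46 and 10.35 in chow controls and 10.11, 10.29 and 10.06 in chow TRAF3 knockouts. On HFD it read 10.60, 10.57 and 10.41 in controls and 10.43, 10.07 and 10.12 in TRAF3 knockouts. The knockout means were lower on both diets, by -0.31 ± 0.12 (adjusted p = 0.13) and -0.32 ± 0.12 (adjusted p = 0.21), and the interaction was -0.01. The iron-sulphur subunit Sdhb read 8.05 ± 0.16 in chow controls and 8.41 ± 0.18 in HFD controls (0.36 ± 0.12, adjusted p = 0.155). The membrane anchors Sdhc and Sdhd had interactions of 0.22 and -0.43.

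In complex III the only calls were in the small subunit Uqcr11. Uqcr11 (17242924) read 7.98, 8.12 and 8.38 in chow controls and 8.73, 8.90 and 9.03 in HFD controls. TRAF3 knockouts read 8.48, 8.47 and 8.41 on chow and 8.45, 8.52 and 8.27 on HFD. Levels thus rose with HFD in controls, without overlap, and overlapped between the diets in TRAF3 knockouts. The differences were 0.73 ± 0.12 (adjusted p = 0.016) for HFD in controls, -0.48 ± 0.12 (adjusted p = 0.049) for TRAF3 knockouts against controls on HFD and -0.77 ± 0.17 (adjusted p = 0.019) for the interaction. The HFD difference between TRAF3 knockouts and controls was lost with 14 of the 18 single arrays left out. Uqcrq, another small subunit, read 7.12, 7.35 and 7.12 in chow TRAF3 knockouts and 6.02, 6.57 and 6.86 in chow controls, and just missed the threshold (0.71 ± 0.22, adjusted p = 0.051). The core proteins Uqcrc1 and Uqcrc2 and the Rieske iron-sulphur protein Uqcrfs1 did not pass in any comparison. In chow TRAF3 knockouts they differed from controls by 0.16, -0.07 and 0.22. Uqcrb, a small subunit, had group means from 11.68 to 11.93. All 7 genes of complex III had a negative interaction, from -0.96 to -0.27.

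Complex IV held the only gene that fell in chow TRAF3 knockouts. Cox6a2 (17496857), the heart and muscle form of subunit 6A, read 10.53, 9.71 and 9.41 in chow controls and 7.13, 7.77 and 6.63 in chow TRAF3 knockouts. The groups were more than 1 log2 unit apart, and the difference of -2.71 ± 0.60 (adjusted p = 0.010) put Cox6a2 at 0.153 of the control level. In chow TRAF2 knockouts it read 7.32, 9.47 and 10.15, so that array 1 alone lay in the range of the TRAF3 knockouts. On HFD the groups overlapped, with 9.62, 9.96 and 8.40 in controls, 9.99, 9.59 and 9.72 in TRAF2 knockouts and 10.04, 9.83 and 8.56 in TRAF3 knockouts. Within TRAF3 knockouts Cox6a2 was therefore 4.92-fold higher on HFD (2.30 ± 0.60, adjusted p = 0.028), and its interaction of 2.85 ± 0.85 did not pass (adjusted p = 0.061). The beta cell score was -0.53 to -1.27 on the chow TRAF3 knockout arrays, -0.73 on chow TRAF2 knockout 1 and -0.16 to 0.53 on all others, and its part in the result was not tested. With the ductal score as a covariate the chow difference was -1.68 (adjusted p = 0.092) and the difference between the diets in TRAF3 knockouts was 1.30 (adjusted p = 0.18), so that neither passed.

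The partner Cox6a1, the common form of subunit 6A, read 11.62 to 11.87 in chow controls and 11.92 to 12.04 in chow TRAF3 knockouts and did not pass. The other heart and muscle forms, Cox7a1 and Cox8b, differed by -0.07 and -0.11 on chow, and the testis forms Cox6b2, Cox7b2 and Cox8c by -0.08 to 0.10. Cox8b, Cox7a1 and the 3 testis forms had means below the median of all genes. Cox4i2, a form of subunit 4 induced by low oxygen, was 6.38 ± 0.14 in chow controls and 6.12 ± 0.34 in chow TRAF3 knockouts, and Ndufa4l2, a hypoxia-induced paralogue of Ndufa4, was 5.20 ± 0.18 and 5.15 ± 0.12. Neither passed in any comparison. Cox7a2l had a difference of -0.35 on chow and did not pass either. Cox8a, the common form of subunit 8, had group means from 11.34 to 11.47, and Cox7b, the common form of subunit 7B, from 11.02 to 11.28.

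Ndufa4 (17464836), first assigned to complex I and now placed in complex IV, read 8.27, 8.37 and 8.30 in chow controls. It read 8.75, 8.63 and 8.72 in chow TRAF2 knockouts, 8.85, 9.12 and 8.79 in chow TRAF3 knockouts and 8.93, 8.96 and 9.18 in HFD controls. Every one of these 9 arrays lay above every chow control. In chow TRAF2 knockouts the difference of 0.39 did not pass. All 3 arrays exceeded all 3 chow controls in 4.7% of all genes in chow TRAF2 knockouts. The shares were 15.9% in chow TRAF3 knockouts and 9.76% in HFD controls. The difference was 0.61 ± 0.11 (adjusted p = 0.0036) for chow TRAF3 knockouts and 0.71 ± 0.11 (adjusted p = 0.0093) for HFD in controls, and both passed whichever array was left out. In TRAF2 knockouts HFD added 0.48 ± 0.11 (adjusted p = 0.034), while in TRAF3 knockouts the HFD arrays read 8.80, 8.86 and 8.69, within the range of the chow arrays or just below it.

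Cox6b1 (17489223), a small subunit on the intermembrane side, had levels of 9.10, 9.34 and 9.31 in chow controls and 9.67, 9.70 and 9.75 in chow TRAF3 knockouts. On HFD the controls were at 9.64, 9.90 and 10.10 and the TRAF3 knockouts at 9.32, 9.40 and 9.43. The groups were separate on both diets, in opposite order. The differences were 0.46 ± 0.12 (adjusted p = 0.023) on chow, -0.50 ± 0.12 (adjusted p = 0.037) on HFD and -0.96 ± 0.17 (adjusted p = 0.0084) for the interaction, and the HFD difference was lost with 10 of the 18 single arrays left out. Cox5a (17517727), a matrix-side subunit, was at 6.67, 7.44 and 7.58 in chow controls and at 8.05, 8.15 and 8.11 in chow TRAF3 knockouts (0.87 ± 0.22, adjusted p = 0.020). Its rise was 1.83-fold, and chow control 1 was far below the others of its group. Cox7a2, the common form of subunit 7A, rose in chow TRAF3 knockouts (0.39 ± 0.12, adjusted p = 0.046) and with HFD in controls (0.56 ± 0.12, adjusted p = 0.041). Each of these was lost with 13 of the 18 single arrays left out. Cox5b passed in the interaction (-0.65 ± 0.17, adjusted p = 0.035), and its second probe set gave -0.82. Cox4i1, the common form of subunit 4, spread from 8.33 to 9.06 in chow controls and from 9.12 to 9.87 in HFD controls, and this difference of 0.71 ± 0.22 did not pass (adjusted p = 0.13).

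In ATP synthase the catalytic head gave no call. Atp5b, the beta subunit that makes ATP, lay between 12.19 and 12.39 on all 18 arrays, and its group means ran from 12.24 to 12.36. The alpha subunit Atp5a1 was 10.70 ± 0.04 in chow controls, 10.75 ± 0.12 in chow TRAF3 knockouts, 10.86 ± 0.03 in HFD controls and 10.62 ± 0.12 in HFD TRAF3 knockouts. Neither passed in any of the 11 comparisons, nor did Atp5c1, the gamma subunit of the rotating stalk, at 5.85 ± 0.25 in chow controls and 6.25 ± 0.09 in chow TRAF3 knockouts (adjusted p = 0.074). Atp5e (17395165), the epsilon subunit of the central stalk, read 7.72, 8.02 and 8.06 in chow controls and 8.52, 8.60 and 9.09 in HFD controls. In TRAF3 knockouts it read 8.07, 8.04 and 8.09 on chow and 7.87, 8.07 and 8.02 on HFD. The HFD controls were therefore above all arrays of these other groups. Atp5e rose with HFD in controls by 0.81 ± 0.15 (adjusted p = 0.024) and in TRAF2 knockouts by 0.63 ± 0.15 (adjusted p = 0.048), and in HFD TRAF3 knockouts it was lower than in HFD controls (-0.75 ± 0.15, adjusted p = 0.015). The interaction was -0.88 ± 0.22 (adjusted p = 0.027). The other probe set of Atp5e gave 0.30 for HFD in controls, 0.11 for HFD in TRAF2 knockouts, -0.10 for TRAF3 knockouts against controls on HFD and -0.38 for the interaction.

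The 3 genes of the c ring make the same mature protein. Atp5g3 rose in chow TRAF3 knockouts, with 8.58, 8.69 and 8.60 against 8.12, 8.32 and 8.37 (0.35 ± 0.10, adjusted p = 0.040). Atp5g1 differed by 0.44 and Atp5g2 by 0.15, and neither passed. The peripheral stalk gene Atp5pb read 9.30 to 9.43 in chow controls and 9.70 to 9.81 in chow TRAF3 knockouts, and on HFD 9.57 to 10.02 and 9.34 to 9.59. It passed in the interaction alone (-0.74 ± 0.17, adjusted p = 0.022). So did the small membrane subunits Atp5k (-0.83 ± 0.20, adjusted p = 0.025) and Atp5mpl (-0.97 ± 0.26, adjusted p = 0.041). In Atp5mpl the groups overlapped on HFD, where controls spanned 7.33 to 7.98 and TRAF3 knockouts 6.74 to 7.38.

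**Figure D4:**
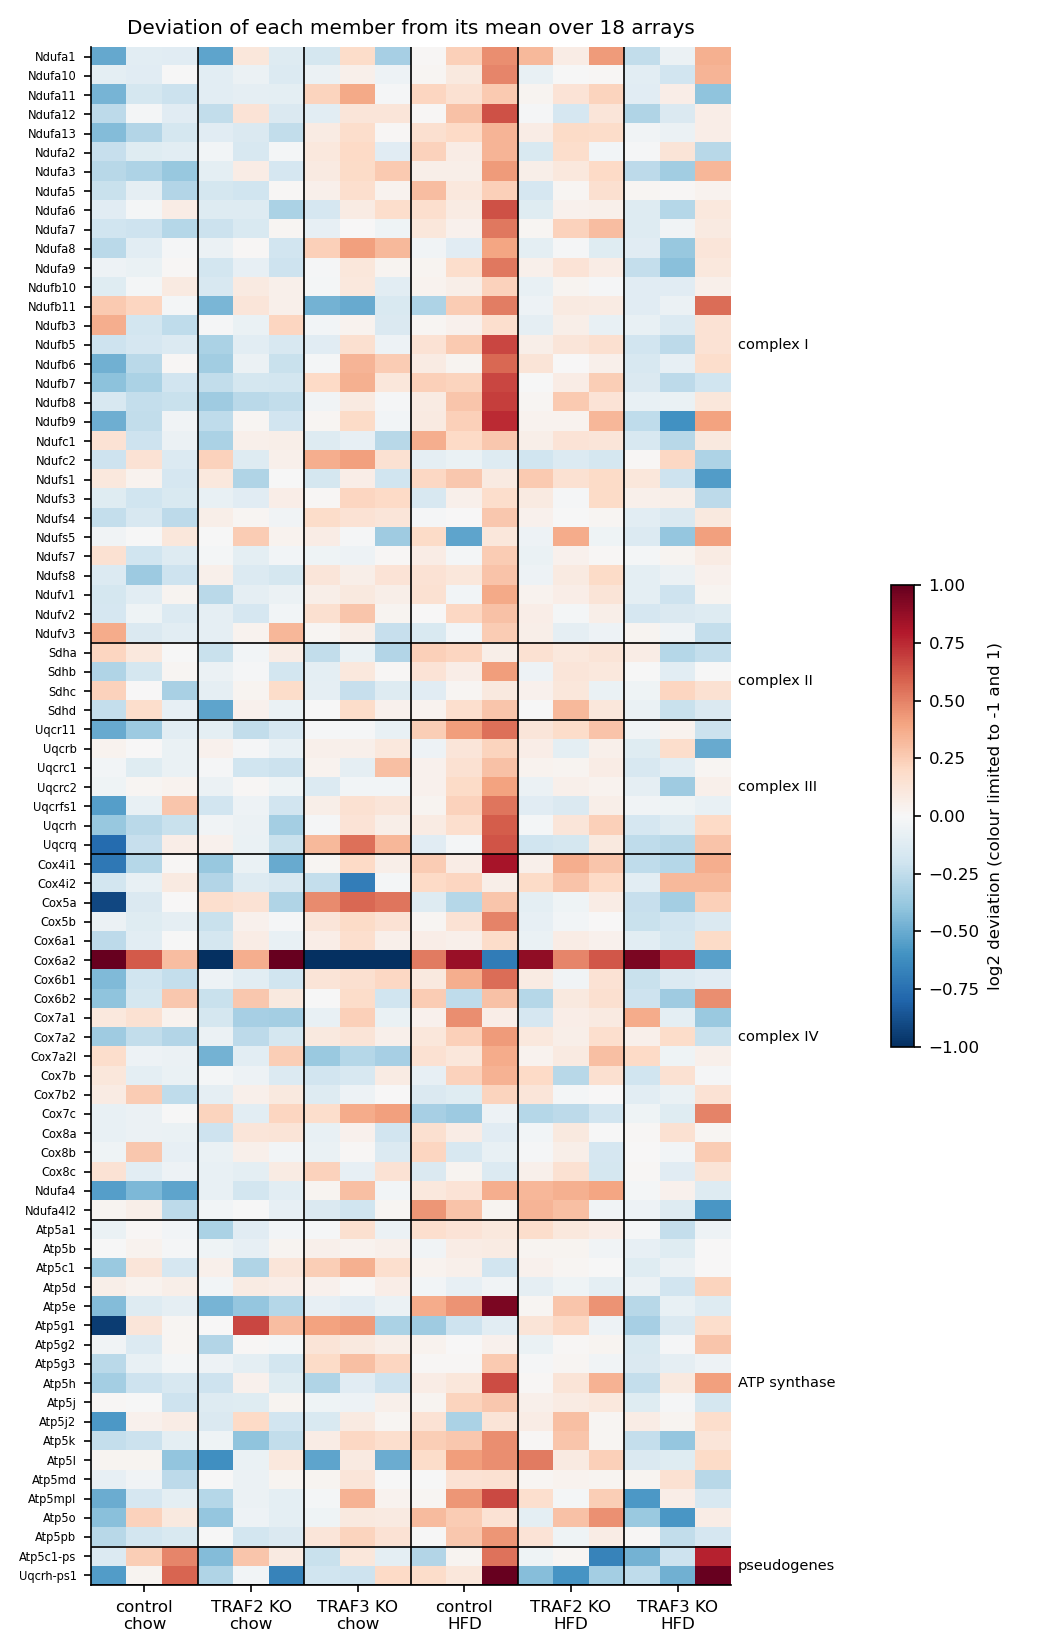
Deviation of each of the 80 genes (rows, grouped by complex) from its own mean over the 18 arrays, in log2 units, with 3 arrays (columns) for each of the 6 groups in replicate order and the colour limited to -1 and 1. Chow controls are mostly blue and HFD controls mostly red, HFD control 3 most of all. With the probe sets used, the rows of Atp5a1, Atp5b and Atp5d are pale.

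The 67 genes with a mean above the median of all genes held every call in these comparisons. Their median difference was 0.17 for TRAF3 knockouts on chow and -0.43 for the interaction, against -0.05 and -0.03 in the 13 dimmer ones. The dimmer genes included Atp5g1, Atp5o, Cox7c, Ndufs5, both pseudogenes and the testis forms Cox7b2 and Cox8c, with means of 2.14 and 2.53. The same values were not computed for all genes above and below the median, so this contrast has no background. For 9 genes a second probe set was measured, and some pairs disagreed. Atp5h had an interaction of -0.22 with the probe set used and 0.82 with the dimmer one, and Cox7b had -0.12 and -0.63. For Atp5d the other probe set was also bright (mean 9.02). It gave 0.40 for TRAF3 knockouts on chow and -0.45 for the interaction, against -0.01 and 0.05 with the one used.

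TRAF2 knockouts gave no call among the 80 genes against controls, on chow (0.298% of all genes passed in either direction) or on HFD (0.252%). At an unadjusted p under 0.05 there were 4 genes on chow and 3 on HFD, with no share of all genes counted. The medians were 0.03 on chow, against -0.015 over all genes, and -0.10 on HFD, against -0.003 over all genes. With each array centred on its median the chow median was -0.01, against -0.056 over all genes. Set directly against TRAF2 knockouts, TRAF3 knockouts had no call among the 80 either, on chow (2.01% of all genes) or on HFD (1.05%). The medians of these were 0.17 and -0.11, and 16 and 9 genes had an unadjusted p under 0.05, again with no share of all genes counted. Ndufb7 was nearest to the threshold on chow, at 0.43 ± 0.13 (adjusted p = 0.093). A higher level in TRAF3 than in TRAF2 knockouts was thus not established for any single gene.

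Other genes of mitochondria and energy metabolism were counted from lists, beside shares over all genes of 6.33% higher and 4.69% lower in chow TRAF3 knockouts and of 2.52% higher and 3.29% lower in the interaction. In chow TRAF3 knockouts 28 of 71 mitochondrial ribosomal protein genes rose and 1 fell (median 0.34), and 26 of 71 passed as lower in the interaction (median -0.53). Of 65 cytosolic ribosomal protein genes 7 rose on chow (median 0.28) and 6 passed as lower in the interaction (median -0.48). The assembly factors, which build the complexes, had 4 of 33 higher on chow and 5 lower in the interaction, with medians of 0.15 and -0.37. Among them were Sco1, a copper carrier for complex IV, at 0.51 ± 0.14 (adjusted p = 0.024) and -0.72 ± 0.19 (adjusted p = 0.038), and the complex I factor Acad9 at 0.48 ± 0.13 (adjusted p = 0.026) and -0.87 ± 0.18 (adjusted p = 0.015). Ndufaf1, another complex I assembly factor, was lower in HFD TRAF3 knockouts than in HFD controls (-0.70 ± 0.16, adjusted p = 0.031).

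Of 9 genes for electron carriers and ATP export, cytochrome c (Cycs, 0.50 ± 0.13, adjusted p = 0.022) and cytochrome c1 (Cyc1, 0.42 ± 0.12, adjusted p = 0.039) rose in chow TRAF3 knockouts, and none passed in the interaction. In the citric acid cycle 2 of 15 rose on chow, citrate synthase (Cs, 0.54 ± 0.14, adjusted p = 0.018) and malate dehydrogenase (Mdh2, 0.46 ± 0.11, adjusted p = 0.012). Of the glycolysis and hypoxia genes 11 of 16 rose and 1 fell on chow (median 1.04), where 6.33% of all genes passed as higher. The gene that fell was the vascular growth factor Vegfa, a hypoxia target (-0.86 ± 0.17, adjusted p = 0.0060), whose interaction was 1.30 ± 0.24 (adjusted p = 0.0095). Those that rose included carbonic anhydrase 9 (Car9, 2.60 ± 0.35, adjusted p = 0.00070), the glucose transporter Slc2a1 (1.50 ± 0.39, adjusted p = 0.021) and lactate dehydrogenase (Ldha, 1.49 ± 0.29, adjusted p = 0.0052). None of these 16 passed between TRAF3 knockouts and controls on HFD (median 0.02). Of 18 regulators of mitochondrial biogenesis none passed in chow TRAF3 knockouts (median -0.17). Nrf1, whose letters were searched in the promoters, fell with HFD in controls (-0.59 ± 0.11, adjusted p = 0.022) and in TRAF2 knockouts (-0.54 ± 0.11, adjusted p = 0.015). Its TRAF3 interaction of 0.68 ± 0.15 (adjusted p = 0.019) was opposite in sign to the median of the 80 genes. The coactivator Ppargc1a was higher on HFD than on chow in TRAF3 knockouts (2.05 ± 0.48, adjusted p = 0.017).

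**Figure D5:**
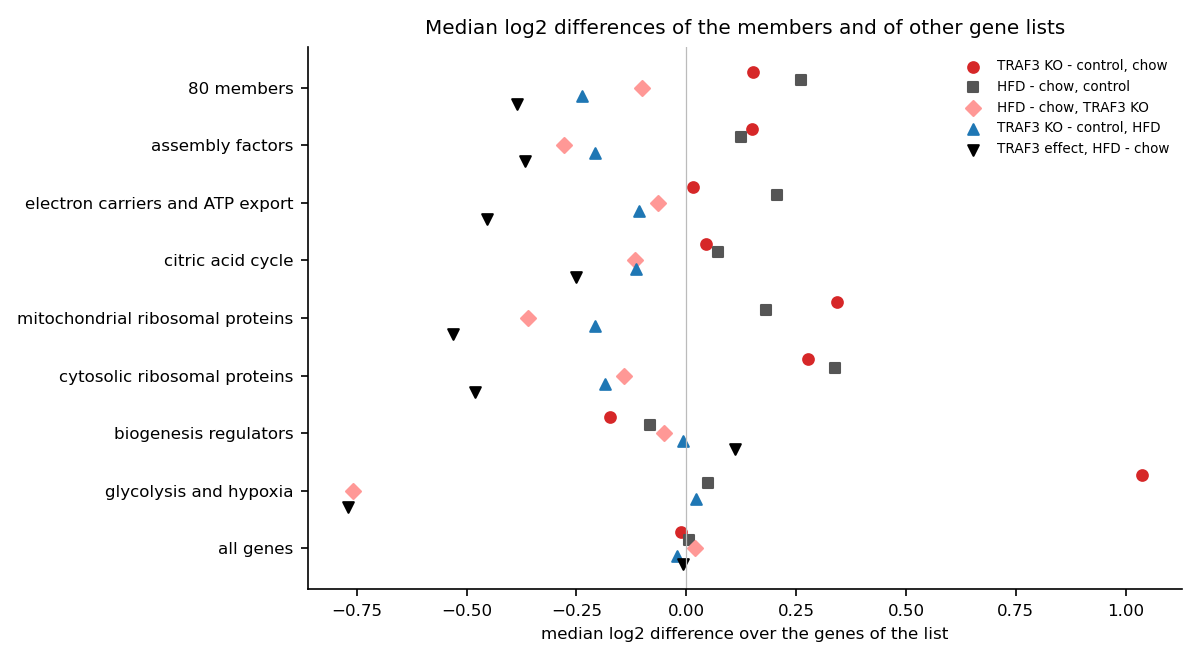
Median log2 difference over the genes of each list (rows) in 5 comparisons (symbols), with all genes in the last row. The 80 genes, the assembly factors and both kinds of ribosomal protein genes lie right of 0 for TRAF3 knockouts on chow. They lie right of 0 for HFD in controls too, and left of 0 for the interaction. Electron carriers, citric acid cycle genes and glycolysis and hypoxia genes lie on the same sides. Their medians for TRAF3 knockouts on chow are 0.02, 0.05 and 1.04.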

How the data were processed

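The authors deposited 1 log2 value per probe set and array, made with RMA (background correction, quantile normalization and probe summary) per the submitters' processing notes, which also name limma. Versions, a genome build and whether all arrays were normalized together are not given in the sources used here. Of 41345 probe sets, 23521 had exactly 1 symbol in the platform annotation, and the brightest probe set per gene left 22180 genes. Values were used as deposited, with no filter. The number of arrays limits the precision.

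Differences were tested with limma 3.58.1 in R 4.3.3 (lmFit, eBayes) in 1 fit of 6 group means over 18 arrays, with 12 degrees of freedom left and 3.69 added by eBayes. The 11 comparisons were each knockout against control and TRAF3 against TRAF2 knockouts on each diet, HFD against chow in each genotype, and the dependence of each knockout difference on diet. Tests were two-sided, adjusted by Benjamini-Hochberg over all genes within a comparison, and passed at 0.05. A standard error (SE) is limma's moderated one. On simulated data for TRAF3 knockouts against controls on chow (22180 genes), 70 of 100 genes changed by 1 log2 unit and 99 of 100 changed by 2 passed, with 9 false calls. The simulated noise was independent between genes, and changes under 1 log2 unit, the size of most calls here, were not simulated.

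The 80 genes, the gene lists, the marker lists and the alternatives were chosen with earlier results of these data known. Genes named with values were the 10 largest calls in chow TRAF3 knockouts, up to 5 in other comparisons, the core subunits, tissue forms, and up to 3 calls per list. The remaining genes of the diet interaction, Uqcrq, second probe sets and left-out arrays were named after their values were seen. Alternatives changed normalization, the variance model, a filter on dim genes, the probe set, the arrays in the fit, a replicate block, a covariate (sex, acinar or ductal score) and single arrays. Leaving out HFD control 3 with HFD TRAF3 knockout 3, and chow TRAF2 knockout 1 with HFD TRAF3 knockout 2, was chosen after seeing the data. Promoters come from RefSeq (GRCm38.p6).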

Additional observations from a re-analysis of the deposited data

Results flagged for a closer look

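For 15 genes the difference between TRAF3 knockouts and controls itself differed between the diets, by the interaction term of the fit over all genes. The interaction, as the log2 difference on HFD minus that on chow, was -1.11 for Ndufb7, -0.84 for Ndufa11, -0.64 for Ndufa13, -0.56 for Ndufs8 and -0.59 for Ndufv2 in complex I. It was -0.77 for Uqcr11 in complex III. In complex IV it was -0.96 for Cox6b1, -0.84 for Ndufa4, -0.65 for Cox5b and -0.64 for Cox7a2. In ATP synthase it was -0.97 for Atp5mpl, -0.88 for Atp5e, -0.83 for Atp5k, -0.74 for Atp5pb and -0.54 for Atp5g3. The fit shares the controls between the knockouts, so the HFD rise of the controls enters each of these values. Groups of 3 arrays were not tested for outlying samples.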

How the results depend on the processing

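Values here are numbers of the 80 genes past the threshold, and a cause was not tested for any change. The share of all genes passing under each alternative was not counted, so a change in number need not be particular to the 80. In TRAF3 knockouts against controls on chow (10), 6 passed with each array centred on its median, 16 with dim genes left out, 4 with only the arrays compared, 18 with the acinar score, 1 with the ductal score, and 18 without HFD control 3 and HFD TRAF3 knockout 3. In the same comparison on HFD (4), 2 passed with centring, the lowest probe set, sex or the acinar score, 0 with only the arrays compared, 0 without that pair of arrays, and 1 without chow TRAF2 knockout 1 and HFD TRAF3 knockout 2. For HFD in controls (7), 11 passed with dim genes left out, 0 with only the arrays compared, 1 with sex, 14 with the ductal score and 2 without the first pair. For HFD in TRAF2 knockouts (2), 0 passed with centring, only the arrays compared or sex, and 1 with quantile normalization again, the lowest probe set, the acinar score or without the second pair. For HFD in TRAF3 knockouts (2), 1 passed with centring, quantile normalization, trend and robust, the lowest probe set, only the arrays compared, sex or without the second pair, 7 with dim genes left out, 5 with the acinar score, 0 with the ductal score and 11 without the first pair. For the TRAF3 interaction (15), 8 passed with centring, 23 with dim genes left out, 5 with only the arrays compared and 9 with the ductal score. For TRAF3 against TRAF2 knockouts (0), 2 passed on chow with dim genes left out and 1 without either pair, and 1 on HFD with the acinar score. Ndufa11 in chow TRAF3 knockouts was -0.012 with its other probe set, opposite in sign.

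With single arrays left out the number ranged from 1 to 15 for TRAF3 knockouts on chow, 0 to 7 on HFD, 1 to 10 for HFD in controls, 0 to 3 in TRAF2 knockouts, 0 to 5 in TRAF3 knockouts, 7 to 26 for the interaction, and 0 to 1 for TRAF3 against TRAF2 knockouts on chow. Of 40 pairs of gene and comparison that passed, 7 passed with every array left out in turn. Groups left with 2 arrays were assumed to vary like the others.

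The labels give all groups the same replicate numbers. Deviations from group means correlated at a median of 0.03 for same numbers (-0.55 to 0.53) and -0.03 for different ones (-0.49 to 0.55). Whether some samples of the same number belong together was not tested. With the replicate block 11 passed for TRAF3 knockouts on chow, 3 on HFD, 6 for HFD in controls, 2 in each knockout and 16 for the interaction.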
